A study of Mus musculus with 9 samples.

Results

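The 30 genes described here were listed as genes of megakaryocytes, the marrow cells that shed platelets, or of platelets themselves. They were taken by symbol from the 39179 gene rows of a raw count table, with no threshold on a measured value, although the list was drawn up with earlier results of these data known. All 30 had a row, and 29 passed the filter on low counts and were tested. The 30th, Gp6, is described from its counts alone.

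RNA was measured in LSK cells, a bone marrow fraction sorted as lacking lineage markers and carrying Sca1 and cKit, in which the blood stem cells and the earliest progenitors lie. All libraries came from C57BL/6 mice aged 6 months, and the labels describe the same course of 5 intraperitoneal poly(I:C) injections for every group. Poly(I:C) mimics viral RNA and induces interferon, to which the Mx1 promoter responds; Mx1-Cre therefore recombines in many interferon-responsive tissues and not in blood cells alone. The wild-type group (wt_Mx+, genotype Dnmt3a+/+) carried Mx1-Cre and gave 3 libraries. The mutant group (cKI_Mx+, genotype Dnmt3a+/m) carried Mx1-Cre and a conditional mutant allele at the endogenous Dnmt3a locus and gave 4 libraries, mutant_824, mutant_827, mutant_829 and mutant_830. The Cre-negative group (cKI_Cre-) carried the conditional allele without Cre, is written Dnmt3a+/- in the study's design, and gave 2 libraries, cre_negative_780 and cre_negative_819. It differs from wild type in both the allele and the Cre, which cannot be told apart. The number in a library's name comes from the sample title, and the values of a group are given in the order of these numbers. The labels do not say whether each library is 1 animal, so p-values measure the spread between these libraries.

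Megakaryocytes load their granules with adhesive proteins and chemokines, build a rim of tubulin, and put receptors on the surface that platelets later use. The glycoprotein Ib-IX-V complex catches von Willebrand factor on damaged vessel walls, the integrin made of Itga2b and Itgb3 binds fibrinogen and links platelets to each other, and thrombin and collagen receptors trigger granule release. Many of these genes are already transcribed in a share of blood stem cells that is biased toward platelet production. An LSK sample can therefore contain their RNA without holding mature megakaryocytes. Whether these samples held any megakaryocytes or platelets was not tested. In bulk RNA, more cells with a transcript and more transcript per cell cannot be told apart.

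Promoter sequence is shown for 4 members on which the values below turn. Pf4 and Gp5 are classic platelet genes whose 2 Cre-negative libraries lay far apart, Gp9 is a receptor subunit that went the other way in those libraries, and Mrvi1 was the member whose groups were most distinct. Each is the 250 bases upstream of a RefSeq transcription start on GRCm38.p6, written 5′ to 3′ on the strand of the gene. Capitals mark a GATA motif (the letters AGATAA, or the variant form TGATAA) or an ETS motif (the letters GGAAG). Each was searched on both strands, so a match on the opposite strand appears in capitals as its reverse complement. Pf4 lies on the plus strand at chr5:90772185-90772434, Gp5 on the minus strand at chr16:30310782-30311031, and Gp9 on the plus strand at chr6:87777820-87778069. Mrvi1, on the minus strand, has a window at chr7:110982462-110982711 for its outer start and one at chr7:110946188-110946437 for an inner start.
Pf4: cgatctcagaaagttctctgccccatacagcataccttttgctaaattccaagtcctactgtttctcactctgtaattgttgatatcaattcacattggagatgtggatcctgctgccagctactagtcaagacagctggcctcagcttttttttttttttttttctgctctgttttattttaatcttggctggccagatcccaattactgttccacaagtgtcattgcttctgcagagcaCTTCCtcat
Gp5: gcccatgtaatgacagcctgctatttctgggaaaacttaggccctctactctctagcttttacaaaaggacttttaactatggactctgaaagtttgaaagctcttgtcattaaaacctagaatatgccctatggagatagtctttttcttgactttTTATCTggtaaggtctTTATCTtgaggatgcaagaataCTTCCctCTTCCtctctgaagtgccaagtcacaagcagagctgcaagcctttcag
Gp9: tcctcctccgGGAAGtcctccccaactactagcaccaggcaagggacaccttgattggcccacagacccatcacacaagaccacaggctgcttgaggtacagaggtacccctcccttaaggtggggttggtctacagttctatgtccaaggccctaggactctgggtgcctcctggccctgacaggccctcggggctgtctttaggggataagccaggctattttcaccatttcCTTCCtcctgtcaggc
Mrvi1 outer start: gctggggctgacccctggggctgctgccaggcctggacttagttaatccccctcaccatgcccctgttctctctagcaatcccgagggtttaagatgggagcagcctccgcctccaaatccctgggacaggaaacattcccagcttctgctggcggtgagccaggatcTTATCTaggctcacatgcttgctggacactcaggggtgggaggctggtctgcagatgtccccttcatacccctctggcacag
Mrvi1 inner start: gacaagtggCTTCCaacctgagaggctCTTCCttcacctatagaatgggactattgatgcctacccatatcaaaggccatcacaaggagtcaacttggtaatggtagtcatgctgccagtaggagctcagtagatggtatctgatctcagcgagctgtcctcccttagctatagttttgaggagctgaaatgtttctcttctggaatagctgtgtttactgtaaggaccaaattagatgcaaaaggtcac
The Gp5 window held 2 GATA and 2 ETS matches, the Pf4 window 1 ETS match, the Gp9 window 2 ETS matches, the outer Mrvi1 window 1 GATA match and the inner one 2 ETS matches. RefSeq windows were used for 25 members, 30 windows in all. A GATA match was present in 7 of these 30 windows, beside 16.6% of the 32851 windows of the table, and an ETS match in 24 of 30, beside 64.1%. The median number of CG dinucleotides was 3 in the windows of the members and 6 in all windows. These matches describe letters and not binding.

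Markers of the labelled cell type were present: all 8 LSK identity genes were detected in every library, with Kit at 369 to 539 CPM, the counts of a gene scaled to library size by the TMM method, and Cd34 at 904 to 1498. Counts assigned to genes ranged from 47792306 to 58405879 per library. Dnmt3a, the targeted gene, stood at 148 to 173 CPM in wild type, at 153 to 171 in mutant and at 118 and 93.5 in the Cre-negative libraries. Library cre_negative_819 stood apart from the others. Its 23 detected erythroid marker genes summed to 4949 CPM, beside 1036 to 1371 in the other 8 libraries, and its 20 long-term stem cell genes to 939 CPM, beside 1284 to 1739. Its 14 mast cell and basophil markers summed to 342 CPM, beside 138 to 193, and its 15 endothelial markers to 307 CPM, beside 431 to 499.9. The LSK identity genes summed to 1959 CPM there, beside 2225 to 2897 in the other 8 libraries. The sums of B cell, T and NK cell, and neutrophil markers were also lowest in this library. Differences from the Cre-negative group are therefore also given without cre_negative_819 for some genes. Those fits hold the other library alone, with its spread taken from the other groups.

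Levels of the members are compared here per kilobase of exon. In wild type, Rap1b, the small GTPase that switches platelet integrins on, averaged 107 ± 9.27 FPKM, which is CPM per kilobase of exon (SD, n = 3). Next came Pdcd4, an inhibitor of translation initiation, at 85.0 ± 11.4, and Plek, a substrate of protein kinase C in platelets, at 70.1 ± 9.07. Apoe, a lipid carrier, followed at 39.8 ± 8.65 FPKM, F2r, a thrombin receptor, at 37.5 ± 3.91, and Pf4, the chemokine platelet factor 4, at 35.5 ± 4.32. Of these 6, Rap1b, Pdcd4, Plek, Apoe and F2r are used well outside the platelet lineage. In wild type 12 members exceeded 10 FPKM and 7 were below 1 FPKM: Mrvi1, Thbs1, Tubb1, Gp1bb, Clec1b, Alox12 and Gp6. Of the 29 pairs of neighbours in the order of levels, 23 overlapped in their wild-type libraries, so their order is not resolved. The 6 pairs that did not overlap were Plek above Apoe, Itga2b above Slc14a1, Cd9 above Lat, Zfp385a above Ppbp, Gp1bb above Clec1b and Alox12 above Gp6. Gp1bb shares 91.1% of its exon bases with Sept5 on the same strand, so its level and its place in the order are uncertain.

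**Figure D1:**
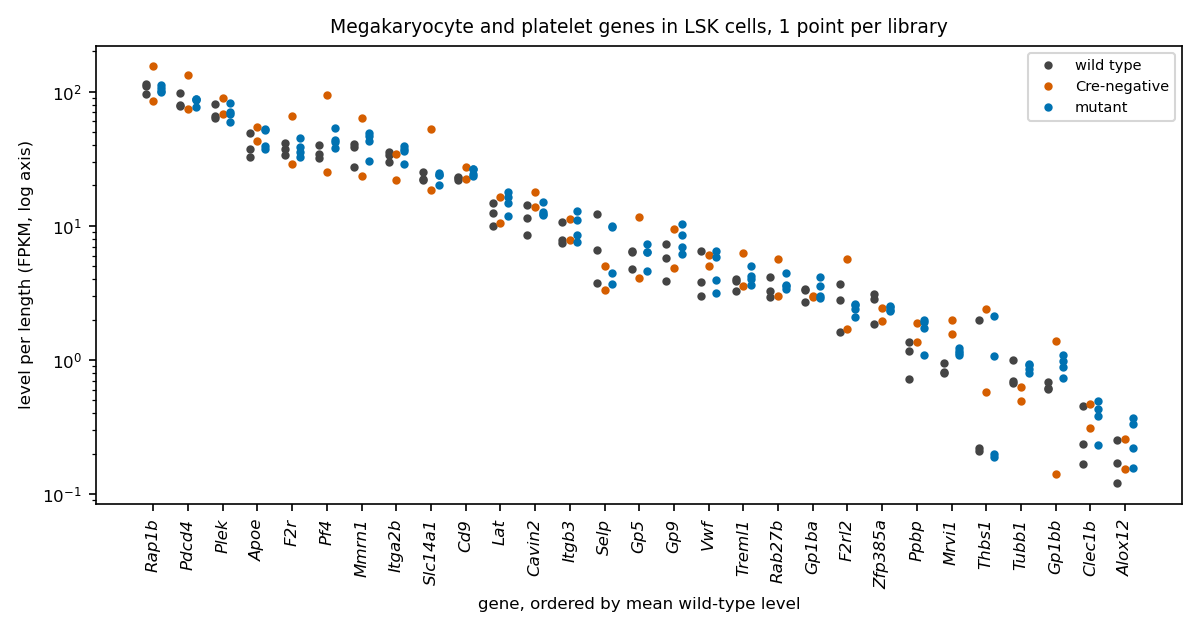
Level of the 29 tested members in each of the 9 libraries, in FPKM on a log axis, 1 point per library and coloured by group. Wild-type means run from 107 FPKM for Rap1b to 0.183 FPKM for Alox12, and cre_negative_819 lies above the other libraries for 15 of the 29 members.

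Gp6, the collagen receptor of platelets, marks the low end of the list. Its counts were 0, 0 and 0 in wild type, 5 and 1 in the Cre-negative libraries, and 2, 0, 0 and 1 in the mutant libraries. A count of 0 allows up to 3 counts, which is 0.0530 to 0.0602 CPM in the 5 libraries at 0; this limit covers counting error only. Gp6 was not tested, and no difference in it could be detected at this depth.

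No member passed the comparison of genotype groups by edgeR's quasi-likelihood test with Benjamini-Hochberg adjustment, in any of the 3 pairwise comparisons or in the test over the 3 groups. Over all 18576 genes tested, 0% were called as well. At an unadjusted p under 0.05, 1 of 29 members passed in mutant against wild type (3.17% of all genes), 2, both higher, where Cre-negative was compared with wild type (5.23%, of which 3.64% were higher and 1.59% lower) and 1, lower, in mutant against Cre-negative (5.26%, of which 3.71% were lower). In the test over the 3 groups 1 of 29 passed at that level, beside 4.72% of all genes. Mrvi1 passed each time, joined by Cavin2 in Cre-negative against wild type. The lowest adjusted p of any member was 0.998 where mutant was set against wild type, 0.454 where Cre-negative was, and 0.801 between mutant and Cre-negative. DESeq2 called 1 member, Mrvi1 in Cre-negative against wild type (adjusted p = 6.65e-05, beside 0.278% of genes), which it also called over the 3 groups (0.606% of genes). It called 0 in mutant against wild type (0.152%) and 0 between mutant and Cre-negative (0.13%). With limma-voom and quality weights 0 members were called in each comparison, beside 0.07% of genes in mutant against wild type and 0% in the others.

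Counted by sign, 22 of 29 members had a higher fitted mean in mutant than in wild type, where 45.7% of all genes did, with a median log2 fold change of 0.15 against -0.02 for all genes. In Cre-negative against wild type 24 of 29 were higher, beside 53.2% of all genes, with a median of 0.30 against 0.02. That second median turned to -0.22 without cre_negative_819, where 15 of 29 members had the opposite sign. In mutant against Cre-negative 12 of 29 were higher, beside 44.2%, with a median of -0.10 against -0.03 for all genes, and this median was 0.35 without cre_negative_819. The first and the second comparison share the wild-type libraries and the second and the third the Cre-negative ones, so these counts are not separate evidence. No test of the list was run.

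**Figure D2:**
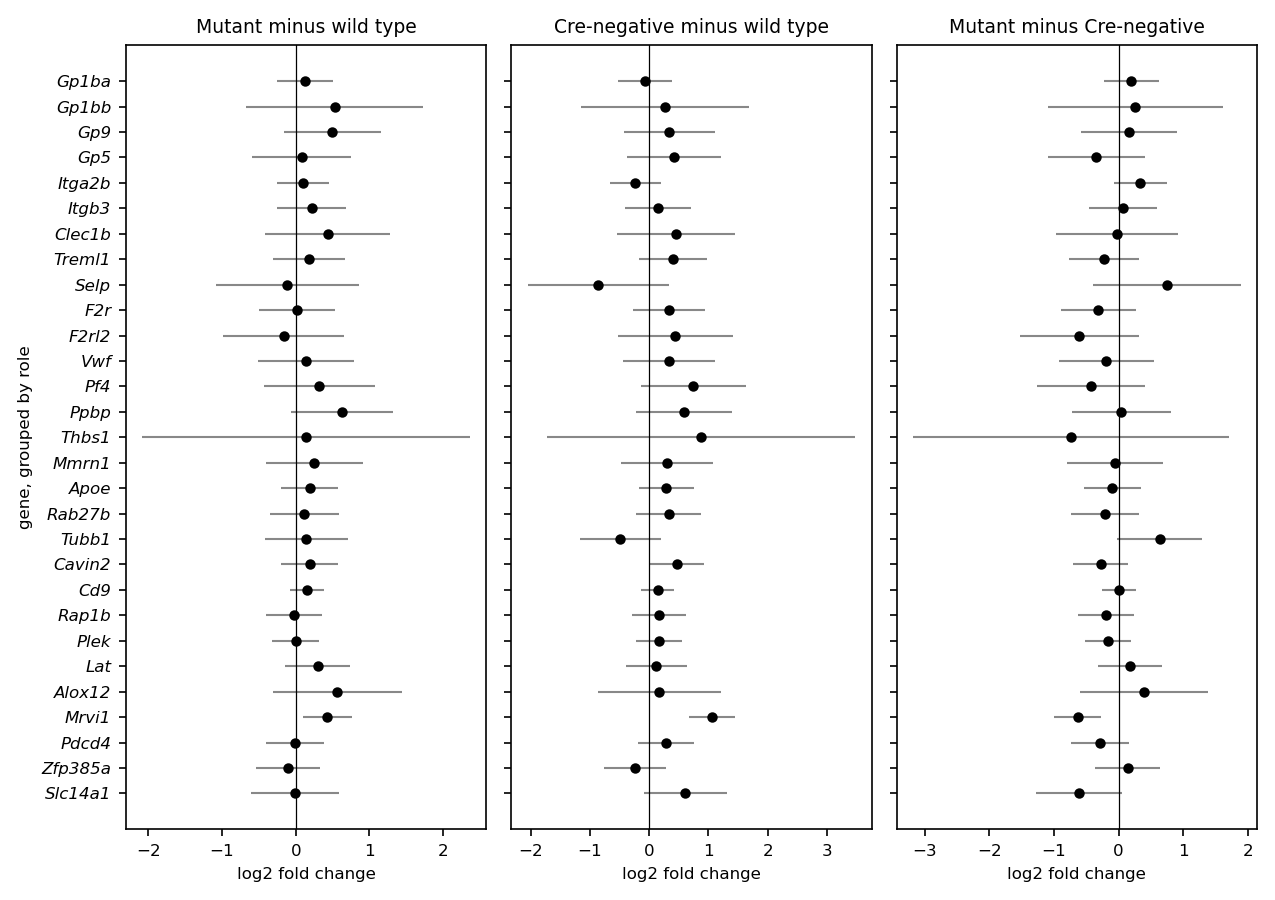
Log2 fold change of each tested member with its 95% interval in the 3 comparisons, ordered by role. Most intervals include 0 in each comparison; that of Mrvi1 lies from 0.10 to 0.76 in mutant against wild type and from 0.67 to 1.45 in Cre-negative against wild type.

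Among signalling genes, Mrvi1 had the most distinct groups. The gene encodes a substrate of the cGMP-dependent kinase that restrains calcium release, and it (ENSMUSG00000005611) lies on the minus strand of chromosome 7, from 110868266 to 110982461 of GRCm38. Its level was 6.48, 5.46 and 5.53 CPM in the wild-type libraries, 13.5 and 10.7 in the Cre-negative ones and 7.63, 8.02, 8.34 and 7.37 in mutant. All 4 mutant libraries lay above all 3 wild-type libraries, and both Cre-negative libraries lay above all others. Mutant exceeded wild type by 0.43 on the log2 scale (SE 0.15, edgeR unadjusted p = 0.0163, adjusted p = 0.998). Cre-negative exceeded wild type by 1.06 (SE 0.17, edgeR unadjusted p = 1.06e-04, adjusted p = 0.454). Mutant minus Cre-negative was -0.63 (SE 0.16, edgeR unadjusted p = 0.00305, adjusted p = 0.801). None of these passed the adjusted threshold, and in the test over the 3 groups Mrvi1 ranked 9th of 18576 genes. The edgeR call of Cre-negative over wild type was made without cre_negative_819 (adjusted p = 0.0384, beside 0.318% of genes called) and without cre_negative_780 (adjusted p = 0.0360, beside 3.37%). Within-group spread was low for Mrvi1, with an SD of 0.14 on the log2 CPM scale, against a median of 0.33 for the members and 0.28 for all genes. Over 1.58% of its exon bases it overlaps the antisense gene Gm16336, whose median count was 2.

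The adaptor Lat, through which the collagen receptor passes its signal on, held 27.4, 34.5 and 40.9 CPM in wild type, 45.3 and 29.2 in the Cre-negative libraries and 49.3, 45.6, 32.5 and 41.1 in mutant. The groups overlapped, and mutant minus wild type was 0.30 on the log2 scale (SE 0.20). Rap1b was even in wild type and mutant, with 327, 319 and 277 CPM and 288, 309, 292 and 320.4 CPM, and wide in the Cre-negative libraries, with 245 and 444. Plek held 361, 286 and 297 CPM in wild type, 305 and 399 in the Cre-negative libraries and 314, 371, 266 and 305 in mutant, with the groups overlapping. Among the rest, Alox12, the platelet lipoxygenase, held 1.04, 0.703 and 0.492 CPM in wild type, 0.632 and 1.04 in the Cre-negative libraries and 0.899, 0.643, 1.36 and 1.52 in mutant. Its mutant minus wild type difference, 0.57 on the log2 scale (SE 0.39), rests on a median of 45 counts per library.

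Among the granule proteins, the chemokines Pf4 and Ppbp are neighbours on chromosome 5, from 90772435 to 90773383 and from 90768518 to 90770063. Pf4 held 29.1, 23.0 and 24.6 CPM in wild type, 18.1 and 67.5 in the Cre-negative libraries, and 30.5, 31.4, 27.5 and 38.5 in mutant. Its 2 Cre-negative libraries lay on either side of every other library, cre_negative_780 lowest and cre_negative_819 highest. Cre-negative minus wild type was 0.74 on the log2 scale (SE 0.40, edgeR unadjusted p = 0.0903), and it was -0.51 without cre_negative_819. Ppbp held 1.47, 0.783 and 1.27 CPM in wild type, 1.47 and 2.05 in the Cre-negative libraries and 2.16, 1.18, 2.07 and 1.86 in mutant. Both Cre-negative libraries were above wild type, cre_negative_780 only in later digits, and 3 of 4 mutant libraries were above it. The log2 difference was 0.63 (SE 0.31) for mutant against wild type and 0.59 (SE 0.36) for Cre-negative against wild type, with a median of 79 counts per library; the second value was 0.31 without cre_negative_819.

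Mmrn1, a large granule protein that binds factor V, held 225, 159 and 237 CPM in wild type, 373 and 139 in the Cre-negative libraries and 286, 274, 178 and 249.6 in mutant. It went the other way from Pf4 in the Cre-negative pair, with cre_negative_780 highest of all libraries and cre_negative_819 lowest. Vwf, the adhesive protein of plasma and granules, lay between 48.2 and 104 CPM in wild type and between 50.3 and 105 in mutant, and its Cre-negative libraries held 97.8 and 81.1 CPM. Selp, the granule membrane selectin that appears on activated platelets, held 54.1, 29.3 and 16.5 CPM in wild type, 14.7 and 22.0 in the Cre-negative libraries and 16.2, 19.6, 43.4 and 44.1 in mutant. The wild-type and mutant ranges of Selp largely coincided, and wild type and mutant each held both low and high libraries. Both Cre-negative libraries were low. Cre-negative minus wild type was -0.86 on the log2 scale and -1.19 without cre_negative_819.

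**Figure D3:**
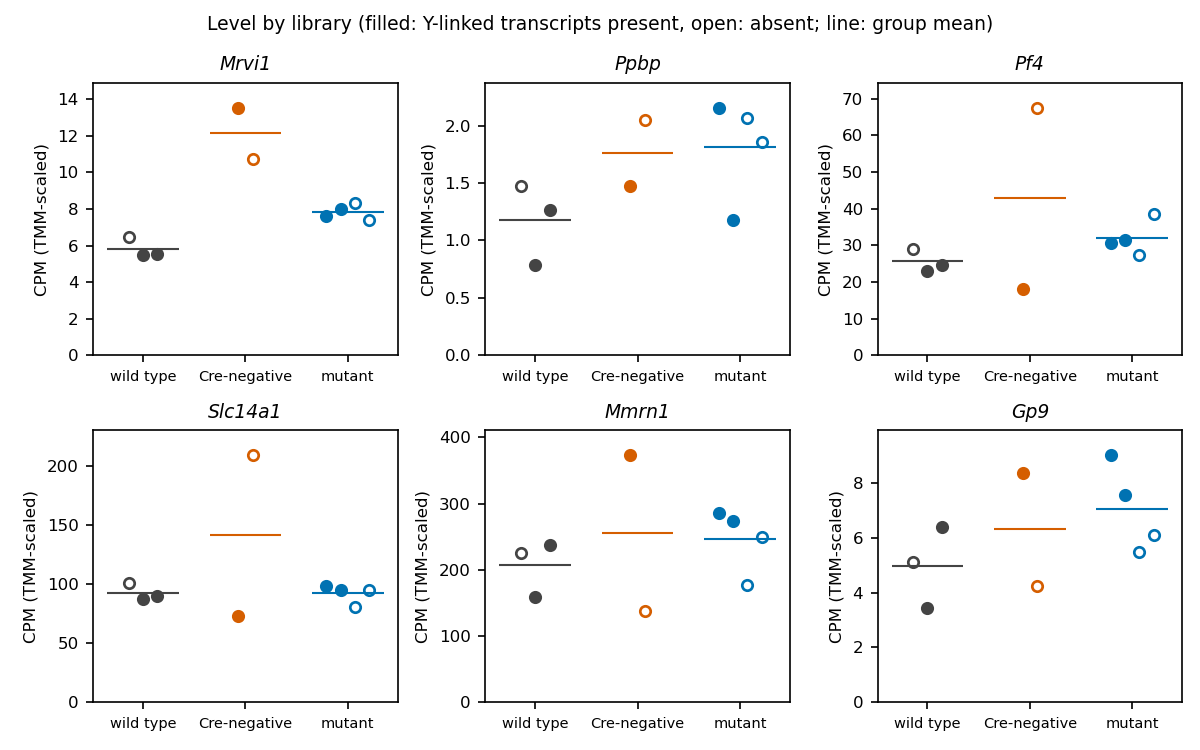
CPM of Mrvi1, Ppbp, Pf4, Slc14a1, Mmrn1 and Gp9 by group, with 1 point per library and a line at the group mean; filled points are libraries with Y-linked transcripts and open points those without. Mrvi1 has 3 separated groups, whereas Pf4 and Slc14a1 are spread widely in the Cre-negative pair only, from 18.1 to 67.5 and from 73.2 to 209 CPM.

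None of the receptor genes passed the adjusted test. In the von Willebrand receptor, Gp9, which stabilises the complex, held 5.10, 3.43 and 6.40 CPM in wild type, 8.36 and 4.23 in the Cre-negative libraries and 9.01, 7.56, 5.46 and 6.10 in mutant. The log2 difference of mutant over wild type was 0.50 (SE 0.29) and the groups overlapped. Gp1ba, which holds the binding site, lay between 7.31 and 9.16 CPM in wild type and between 7.89 and 11.3 in mutant. Gp5 lay between 10.4 and 14.2 CPM in wild type and between 10.1 and 16.2 in mutant. Its Cre-negative pair held 8.99 and 25.4 CPM, and Cre-negative minus wild type was 0.42 on the log2 scale. That difference was -0.53 without cre_negative_819. Gp1bb, the other chain of the complex, lay above wild type in all 4 mutant libraries, at 1.27, 1.28 and 1.44 CPM against 2.28, 1.86, 1.52 and 2.03. Its exon bases overlap those of Sept5 on the same strand over 91.1% of the exon length, so its counts cannot be assigned with certainty. Its Cre-negative libraries held 0.295 and 2.89 CPM, from 14 and 158 counts. Cre-negative minus wild type was 0.27 on the log2 scale for Gp1bb and -2.18 without cre_negative_819. Mutant minus Cre-negative was 0.26 and became 2.72 without that library.

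Itga2b, the alpha chain of the fibrinogen integrin, held 164, 183 and 193 CPM in wild type, 119 and 187 in the Cre-negative libraries and 202, 196, 157 and 215 in mutant. Its mutant minus Cre-negative difference of 0.33 on the log2 scale (SE 0.18) missed the threshold, and it was 0.73 without cre_negative_819 and 0.09 without cre_negative_780. F2rl2, a thrombin receptor that assists a partner receptor on mouse platelets, held 9.22, 4.07 and 6.97 CPM in wild type, 4.27 and 14.1 in the Cre-negative libraries and 5.25, 6.40, 5.99 and 6.52 in mutant. F2r, its relative on chromosome 13, held 139, 113 and 124 CPM in wild type, 96.2 and 219 in the Cre-negative libraries and 129, 119, 108 and 151 in mutant. In both receptors cre_negative_819 was the highest library, and the mutant and wild-type ranges overlapped. Mutant minus Cre-negative was -0.60 for F2rl2 and -0.32 for F2r, and turned to 0.53 and 0.43 without cre_negative_819. Cd9, a tetraspanin of the platelet surface, was the most even member (SD 0.11 within groups on the log2 CPM scale), with 46.6, 47.2 and 44.7 CPM in wild type, 45.6 and 56.5 in the Cre-negative libraries and 49.3, 54.5, 47.8 and 53.9 in mutant. All 4 mutant libraries lay above wild type, by 0.15 on the log2 scale (SE 0.10). Together Mrvi1, Cd9 and Gp1bb were the 3 members of 29 that lay wholly above wild type in mutant, and 4.17% of all genes did so; none lay wholly below, as 4.15% of genes did. In Cre-negative against wild type the counts were 2 higher, Mrvi1 and Ppbp (6.25% of genes), and 1 lower, Tubb1 (5.12%).

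Tubb1, the tubulin of the platelet rim, held 1.40, 0.984 and 0.946 CPM in wild type, 0.884 and 0.696 in the Cre-negative libraries and 1.12, 1.29, 1.31 and 1.20 in mutant. Both Cre-negative libraries lay below all others, so that in mutant against Cre-negative Tubb1 was the 1 member wholly higher (5.09% of genes) and Mrvi1 the 1 member wholly lower (7.27%). Mutant minus Cre-negative was 0.64 for Tubb1 (SE 0.30, edgeR unadjusted p = 0.0565), on a median of 56 counts, and 0.50 without cre_negative_819. Cavin2, a caveola coat protein, held 43.5, 26.1 and 34.7 CPM in wild type. It held 42.1 and 54.1 CPM in the Cre-negative libraries and 38.4, 37.0, 37.5 and 45.6 CPM in mutant. Its Cre-negative minus wild type difference of 0.47 on the log2 scale (SE 0.20, edgeR unadjusted p = 0.0436, adjusted p = 0.925) had overlapping libraries and was 0.26 without cre_negative_819. Slc14a1, a urea transporter of the red cell and its precursors, held 101, 87.4 and 89.8 CPM in wild type, 73.2 and 209 in the Cre-negative libraries and 98.3, 94.9, 80.7 and 94.9 in mutant. As with Pf4, cre_negative_780 was the lowest and cre_negative_819 the highest of all libraries. Cre-negative minus wild type was 0.61 (SE 0.32) and became -0.35 without cre_negative_819. Pdcd4 held 307, 249 and 243 CPM in wild type, 231 and 416 in the Cre-negative libraries and 241, 274, 274 and 269.8 in mutant, and the groups overlapped.

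In mutant against wild type the log2 difference was 0.14 for Vwf, 0.19 for Apoe, 0.22 for Itgb3 and 0.14 for Thbs1. The 95% interval of Thbs1 ran from -2.08 to 2.36. In Cre-negative against wild type the value of Thbs1 was 0.87, which became -0.51 without cre_negative_819. Clec1b, the podoplanin receptor, Treml1, a granule receptor, Rab27b, which guides granule release, and Zfp385a, a zinc finger protein of megakaryocytes, had log2 differences between -0.24 and 0.45 in the 3 comparisons. None of these 8 members passed an unadjusted p of 0.05 in any comparison.

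Many members differed between the 2 Cre-negative libraries. Of 29 members, 23 were higher in cre_negative_819 than in cre_negative_780, and 15 were higher in cre_negative_819 than in any other library, where 21.3% of all genes were. In cre_negative_780, 9 members were lower than in any other library (19.3% of all genes). By a ratio of at least 1.5, 14 members were higher in cre_negative_819 (18.4% of all genes) and 3 were higher in cre_negative_780 (24.2% of all genes). The largest ratio of cre_negative_819 to cre_negative_780 was 9.82 for Gp1bb, followed by 4.16 for Thbs1, 3.73 for Pf4, 3.29 for F2rl2, 2.85 for Slc14a1 and 2.83 for Gp5. The 3 that went the other way were Mmrn1, 2.69 times higher in cre_negative_780, Gp9 at 1.98 times and Lat at 1.55 times. Over the 29 members the median deviation from the mean of the 9 libraries was 0.43 on the log2 scale in cre_negative_819 and -0.23 in cre_negative_780, with 0.22 in mutant_830, the highest library for 5 members (4.71% of all genes). The other platelet genes, a list of 65, did not share the shift: in cre_negative_819 they summed to 8919 CPM, below the 9427 to 11142 of the other 8 libraries, with a median deviation of -0.20. The 30 megakaryocyte regulators had a median deviation of -0.09 there. Library cre_negative_819 is also the one in which erythroid, mast cell and basophil markers were high and LSK identity, stem cell and endothelial markers low. The part of these markers in the members' values was not tested. In edgeR without cre_negative_780, the group being cre_negative_819 alone, 4 members were called against wild type, F2r, Mrvi1, Pf4 and Slc14a1 (3.37% of genes), and 7 in mutant against Cre-negative (9.51% of genes). Without cre_negative_819 these counts were 1 (Mrvi1, 0.318% of genes) and 0 (0.0462%). The test over the 3 groups called 3 members without cre_negative_780, Mrvi1, Pf4 and Slc14a1 (4.54% of genes), and 0 without cre_negative_819 (0.113%).

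**Figure D4:**
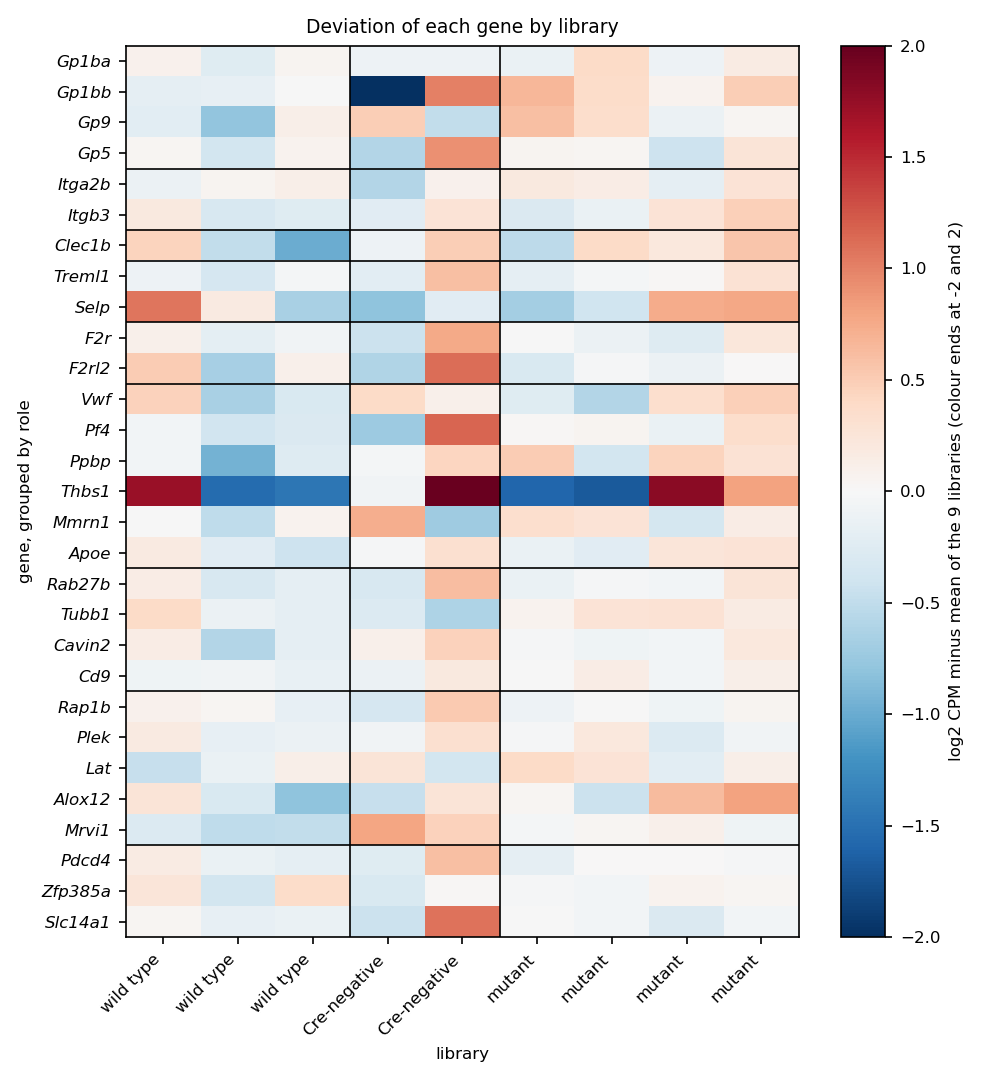
Log2 CPM of each tested member minus its mean over the 9 libraries, with libraries in columns by group and members in rows by role. The second Cre-negative column, cre_negative_819, is mostly above the mean, with a median of 0.43.

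A second pattern ran across the groups. Y-linked transcripts were present in 5 of the 9 libraries, and every group mixed libraries with and without them. Of the 4 without, 3 held 1567 to 2716 CPM of Xist, the RNA of the inactive X chromosome, but mutant_829 held 2.07 CPM and so had neither kind; it was coded by Y-linked transcripts alone. Fitted beside the groups, this property was tested over all 18576 genes, a comparison added after the values of Thbs1, Selp and Vwf by library were seen. Of the members, 2 of 29 passed edgeR's test with adjustment, beside 0.307% of all genes. Thbs1, which encodes thrombospondin of the alpha granule, held 1.26, 1.34, 3.50, 1.22 and 1.14 CPM in the 5 libraries with Y-linked transcripts. The libraries without them held 12.1, 14.5, 12.8 and 6.46 CPM. The 2 kinds did not overlap: the mean was 1.69 ± 1.01 CPM with (SD, n = 5) and 11.5 ± 3.50 without (SD, n = 4), and the fitted log2 difference was -2.86 (SE 0.26, edgeR adjusted p = 0.00395). Thbs1 (ENSMUSG00000040152) lies on chromosome 2, from 118111876 to 118127133.

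Itgb3, the beta chain of the fibrinogen integrin, held 43.6 to 49.9 CPM in the 5 libraries with Y-linked transcripts and 62.7 to 76.2 in the 4 without, and its log2 difference was -0.53 (SE 0.08, edgeR adjusted p = 0.0361). Apoe held 106, 79.8 and 69.8 CPM in wild type, 91.7 and 116 in the Cre-negative libraries and 84.6, 79.7, 110.4 and 113 in mutant. Those with Y-linked transcripts, 69.8 to 91.7 CPM, lay below those without, 106 to 116, and the gene missed the threshold (log2 difference -0.44, edgeR adjusted p = 0.0526). Selp had a log2 difference of -1.12 with an edgeR adjusted p of 0.0504, Vwf -0.60 with 0.145 and Lat 0.46 with 0.0858. The Cre-negative pair was split by this property, cre_negative_780 with and cre_negative_819 without Y-linked transcripts. The fitted differences and the counts by sign therefore also draw on the gap between those libraries described above. Over the fits that left out 1 library, the log2 difference was -3.12 to -2.64 for Thbs1 and -0.57 to -0.49 for Itgb3. These fits include those without cre_negative_780 or without cre_negative_819, in which the gap between them has no part. The part of that gap in the counts by sign was not tested. By sign, 25 of 29 members were lower with Y-linked transcripts, beside 50.6% of all genes. Of the members, 12 passed an unadjusted edgeR p of 0.05 (19.2% of genes), 11 of them lower (9.61%). The 63 other platelet genes tested did not lean the same way: 25 were lower and 38 higher with Y-linked transcripts, with a median of 0.09 on the log2 scale against -0.34 for the members, and their sum was 10033 to 11142 CPM with and 8919 to 9981 without. Of these genes edgeR called 2, both lower with Y-linked transcripts: F13a1, a chain of clotting factor XIII, and Timp3, a protease inhibitor. Both are named after their values were seen. For Mrvi1 the difference was 0.002 on the log2 scale (edgeR adjusted p = 0.996), and its order of groups held within both kinds of library. The edgeR call of Thbs1 did not hold in every fit that left out 1 library (adjusted p up to 0.0865; 0.00629 without mutant_829), and that of Itgb3 was lost on leaving out any 1 of the wild-type or mutant libraries (adjusted p of 0.0668 to 0.177). LSK identity markers summed to 2660 to 2897 CPM with Y-linked transcripts and to 1959 to 2514 without (from 2225 when cre_negative_819 is left out), and their part in these differences was not tested. T and NK cell markers summed to 112 to 119.9 CPM with and to 81.4 to 95.8 without. Vwf, Selp and Thbs1 are also made by endothelium, whose 15 marker genes summed to 436 to 499.9 CPM with and to 307 to 449.8 without, and Sox17 was at 0 in 8 of 9 libraries. The part of these lists was not tested either. DESeq2 called 8 members in this comparison, beside 6.64% of genes. With the property as a covariate, edgeR again called 0 members in the 3 genotype comparisons.

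**Figure D5:**
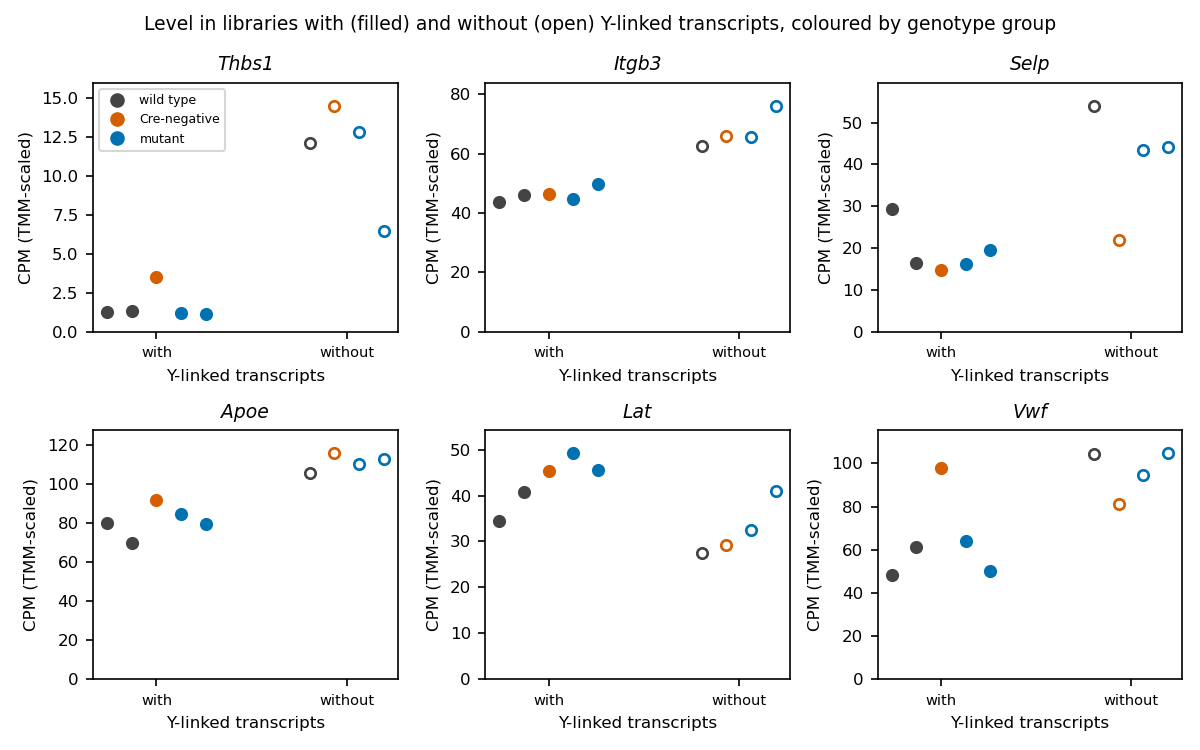
CPM of Thbs1, Itgb3, Selp, Apoe, Lat and Vwf in the 5 libraries with and the 4 without Y-linked transcripts, with 1 point per library coloured by group. The points of Thbs1, from 1.14 to 3.50 CPM and from 6.46 to 14.5 CPM, and of Itgb3 do not overlap.

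Around these members stand the factors that direct the lineage. Of 30 megakaryocyte regulators tested, edgeR called 0 in each comparison; at an unadjusted p under 0.05, 1 was higher in mutant against wild type (1.86% of all genes), 4 in Cre-negative against wild type (3.64%), and 3 were lower in mutant against Cre-negative (3.71%). Zfpm1, the cofactor of Gata1, had a log2 difference of 0.34 in mutant over wild type (unadjusted p = 0.0280), and Gfi1b, a repressor required for megakaryocytes, one of 1.31 in Cre-negative over wild type (unadjusted p = 0.0028, adjusted p = 0.787). Gfi1b held 25.6, 12.9 and 21.1 CPM in wild type and 29.5 and 69.0 in the Cre-negative libraries, and its difference was 0.55 without cre_negative_819. Gata1, the lineage's DNA-binding regulator, was at 12.2 CPM in cre_negative_780 but 99.1 CPM in cre_negative_819, with at most 26.2 CPM in a mutant library. Its mutant minus Cre-negative difference of -1.27 turned to 0.96 without cre_negative_819. Of 63 other platelet genes tested, edgeR called 0, with 2, 5 and 3 past the unadjusted level in the 3 comparisons, shares of 3.17%, 7.94% and 4.76% beside 3.17%, 5.23% and 5.26% of all genes. The leading one was Slc35d3, a transporter needed for dense granules, at 5.77, 3.21 and 5.17 CPM in wild type, 9.90 and 8.24 in the Cre-negative libraries and 7.11, 7.47, 7.22 and 7.69 in mutant. All 4 mutant libraries lay above wild type and both Cre-negative libraries above mutant, the same order of groups as Mrvi1, with log2 differences from wild type of 0.64 in mutant and 0.94 in Cre-negative, or 1.05 without cre_negative_819.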

How the data were processed

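Raw counts per gene of 9 libraries were deposited by the authors; the libraries are stranded and depleted of ribosomal RNA, per the labels' protocols. STAR, HTSeq 0.5.3p3 and DESeq2 and the build mm10 (GRCm38) are listed per the submitters' processing notes; the role of each tool, the annotation and the strand setting were not given in the sources used here, which leaves genes that overlap on opposite strands uncertain. A second deposited table, a scaled signal equal to these counts divided by 1 factor per library, was not used. The 5 rows naming no gene held 40.5% to 47.3% of counted reads and were left out; reads not aligned uniquely were 21.6% to 28.3%. GENCODE matched 37693 of 39179 identifiers and gave exon lengths for FPKM, which is CPM per kilobase of joined exons.

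Genes passing filterByExpr were scaled by TMM and tested by edgeR 4.0.16 (quasi-likelihood, 1 mean per group, two-sided, Benjamini-Hochberg at 0.05), under R 4.3.3 with limma 3.58.1 and DESeq2 1.42.0. The SE is the log2 fold change divided by the root of its F statistic. Libraries of 1 group differed beyond sampling noise (chi-square per degree of freedom at least 14.6). The model was tested on simulated data. Members and lists were chosen with earlier results of these data known. Per-library values were given for the 6 members with the lowest p in each comparison, the 6 highest per length, and any member apart from wild type in both other groups; Mmrn1, Vwf, Thbs1, Itgb3, Gp1bb, Gp1ba and Gp5 were added after their values were seen. Up to 4 genes per comparison came from each of the 2 other lists, those with the lowest p, of which the text gives the leading ones.

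The analysis was repeated with upper-quartile or RLE scaling, with limma-voom (quality weights) or DESeq2, unfiltered or at 1 CPM in at least 4 libraries, on the compared groups alone, with a threshold of 0.10, a covariate for Y-linked transcripts, transcript length, and each library left out. The names of some libraries are not reported here.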

Additional observations from a re-analysis of the deposited data

Results flagged for a closer look

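In the 4 mutant libraries, 29 members were examined for a library far from the other 3, and 2 were found; chance alone gives about 1 in 20. Pdcd4, the translation inhibitor, stood at 241 CPM in mutant_824, below the other 3 libraries at 269.8 to 274 CPM. Cavin2, the caveola coat protein, stood at 45.6 CPM in mutant_830, above the other 3 at 37.0 to 38.4 CPM. Library mutant_830 was the highest of all 9 libraries for 5 of the 29 members, as it was for 4.71% of all genes.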

How the results depend on the processing

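No paired analysis was possible because library numbers are not shared between groups. Mutant against wild type called 0 members under every alternative run, and its median lay between 0.07 and 0.34 over the libraries left out. In Cre-negative against wild type, members called were 1 with DESeq2 and 0 to 4 over the libraries left out, and the median lay between -0.22 and 0.50. In mutant against Cre-negative, 0 to 7 were called over the libraries left out, with a median between -0.24 and 0.35. Over the 3 groups, DESeq2 called 1 and the fits leaving out a library 0 to 3. Leaving out a library, Slc14a1 ranged from -0.35 to 1.14 and Pf4 from -0.51 to 1.37 in Cre-negative against wild type, and Slc14a1 from -1.13 to 0.36 and F2rl2 from -1.17 to 0.53 in mutant against Cre-negative; each sign turned without cre_negative_819. For Y-linked transcripts, 2 members (0.307% of all genes) became 4 with RLE scaling (0.361%), 6 with no filter (2.05%), 4 with the CPM filter (0.577%), 8 with DESeq2 (6.64%) and 0 to 5 over the libraries left out (0.0327% to 3.94%). Longest transcripts moved 1 member, F2r, by over 3 ranks. The cause of these shifts was not tested, beyond fewer libraries where one was left out. Depth limits Gp6, Alox12 and Tubb1 most.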
